A study of Mus musculus with 24 samples.

Results

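The 39 genes described here encode the defence system that is built around the transcription factor NRF2 and the tripeptide glutathione, and they were taken from the expression tables of the study by gene symbol. All 39 symbols were found among the 56895 gene entries that the tables hold. RNA from retroperitoneal adipose tissue, a visceral white fat depot behind the peritoneum, was sequenced from adult C57BL/6J mice (C57BL/6JRJ in the methods) in 24 libraries that form 8 groups of 3 mice. Dams received AIN-93G with 1.0 IU/g vitamin D3 (CTRL) or AIN-93G with 0.0 IU/g (VDD, vitamin D deficiency) from 8 weeks before mating until the end of gestation, and all of them received the CTRL diet after birth. From 6 weeks of age the male and female offspring then ate for 8 weeks either a low-fat diet (LF, AIN-93M) or a high-fat diet with 45% of its energy from fat (HF). The groups were therefore CTRL LF, CTRL HF, VDD LF and VDD HF males and the same 4 groups of females, and the labels name no transgene and no drug. Litters are not identified in the labels, so siblings may share a group and the p-values measure only the spread between these mice.

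NRF2, the product of Nfe2l2, is held in the cytoplasm and marked for degradation by KEAP1 in unstressed cells. Oxidants and electrophiles modify cysteines of KEAP1, NRF2 then accumulates in the nucleus and, paired with a small MAF protein, binds the antioxidant response element near genes for glutathione synthesis, glutathione transfer, quinone reduction, thioredoxin recycling, NADPH supply and haem breakdown. Because this control acts mainly on the protein, Nfe2l2 mRNA is only a partial readout of the pathway, whereas the mRNAs of its targets are widely used as one. In fat, adipocytes produce and clear hydrogen peroxide and lipid peroxides in large amounts, and macrophages, which accumulate in the fat of obese animals, are another source of oxidants.

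The antioxidant response element core, written TGACNNNGC and searched on both strands, was looked for in RefSeq promoter windows of 300 bases (250 before and 50 after the annotated start, GRCm38.p6). A window was at hand for 33 of the 39 genes, and 10 of these genes (30.3%) held the letters, against 3781 of 27025 genes with a window (14.0%). Windows were lacking for Hmox1, Gclc, Gsr, Gsta4, Prdx6 and Sod3. The 10 genes were Nfe2l2, Gclm, Txnrd1, Srxn1, Gsta3, Gstm5, Prdx1, Sod1, G6pdx and Pgd. Cat and Ephx1, named below for offspring diet, had a window without a match. Shown here are stretches of Gclm, Gsta3 and Sod1, also named below for offspring diet, where Sod1 missed the fold threshold. G6pdx is added for the maternal comparison in LF males (adjusted p = 0.632, limma) and Nfe2l2 as the factor itself. The stretches read 5′ to 3′ on the strand of the gene, with the match in capitals, and the match starts at -134 from the start site for Gclm, -121 for Gsta3, -56 for Sod1, -57 for G6pdx and -240 for Nfe2l2. In Gclm, Sod1 and G6pdx the capitals are the reverse complement of the motif.
Gclm, chr3:122245403-122245451, plus strand: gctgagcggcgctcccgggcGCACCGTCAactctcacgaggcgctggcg
Gsta3, chr1:21240444-21240492, plus strand: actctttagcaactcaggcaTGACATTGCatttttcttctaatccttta
Sod1, chr16:90220686-90220734, plus strand: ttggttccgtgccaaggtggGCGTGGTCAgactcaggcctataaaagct
G6pdx, chrX:74428909-74428957, minus strand: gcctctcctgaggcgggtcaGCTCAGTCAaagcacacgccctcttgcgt
Nfe2l2, chr2:75704875-75704913, minus strand: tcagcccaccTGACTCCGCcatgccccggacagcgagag
A match is a description of letters in this window, and NRF2 binding was not analysed here.

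Each library held between 13346779 and 18484346 reads on genes (median 15933506). Adipocyte markers were abundant throughout, with a summed level over 10 markers of 350000 to 966000 normalised reads per library and none of the 10 at 0 in any group. Several libraries also had high levels of markers of other tissues. Summed skeletal muscle markers reached 1300000 normalised reads in VDD LF male 2310, 425000 and 269000 in VDD HF males 2307 and 2298, and 193000 in VDD LF female 2303, against medians of 3440 in males and 687 in females. The same VDD LF female 2303 had 10500 for 12 kidney markers, where no other library passed 631, and adrenal markers reached 33100, 19200 and 10400 in CTRL HF female 2292, VDD HF female 2121 and CTRL HF female 2290. These 7 libraries are left out where a result is given "without libraries rich in other tissue", an alternative chosen after seeing the data. The adrenal sums of females 2292, 2121 and 2290 came mostly from Cyp11a1 (12775, 10479 and 3793) and Hsd3b1 (18350, 7896 and 5248). Cyp21a1 and Cyp11b2 were at 0 in these females and Cyp11b1 at 4.1, 0 and 8.9. Which tissue these transcripts came from was not tested, and "adrenal" is only the name of the marker list. The column names of 6 libraries, 1 in each group except CTRL HF and VDD HF females, contain "renal", a term that the sources used here leave unexplained, and 1 of these (VDD HF male 2307) is also among the 7.

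Levels of different genes were compared only after division by exon length, as normalised reads per kb of the exon union (GENCODE M21, GRCm38), averaged over the 24 libraries. The extracellular glutathione peroxidase Gpx3 stood highest at 11600 normalised reads per kb, followed by the ferritin light chain Ftl1 (11200), the cytosolic glutathione peroxidase Gpx1 (8580), catalase Cat (8330) and the ferritin heavy chain Fth1 (7940). The enzymes that make and renew glutathione sat far lower, with 263 for glutathione reductase Gsr, 146 for Gclc, 114 for Gclm and 57.6 for glutathione synthetase Gss. Nfe2l2 itself stood at 378 and Keap1 at 170. Slc7a11, the cystine carrier that feeds glutathione synthesis in many cell types, was among the least abundant at 0.557 per kb. Its highest library held 21.6 normalised reads, and 2 libraries held none. Gsta1, Gstm3 and the gut-type glutathione peroxidase Gpx2 were lower still in reads, with no library above 5.01, 2.51 and 18.8 normalised reads, and these 3 genes passed no low-value filter over the 24 libraries. Since only reads with a unique position were counted, levels of near-identical genes (Gsta1 and Gsta2, the Gstm cluster, Gstp1 and its copy, Ftl1 and its pseudogenes) are uncertain.

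**Figure D1:**
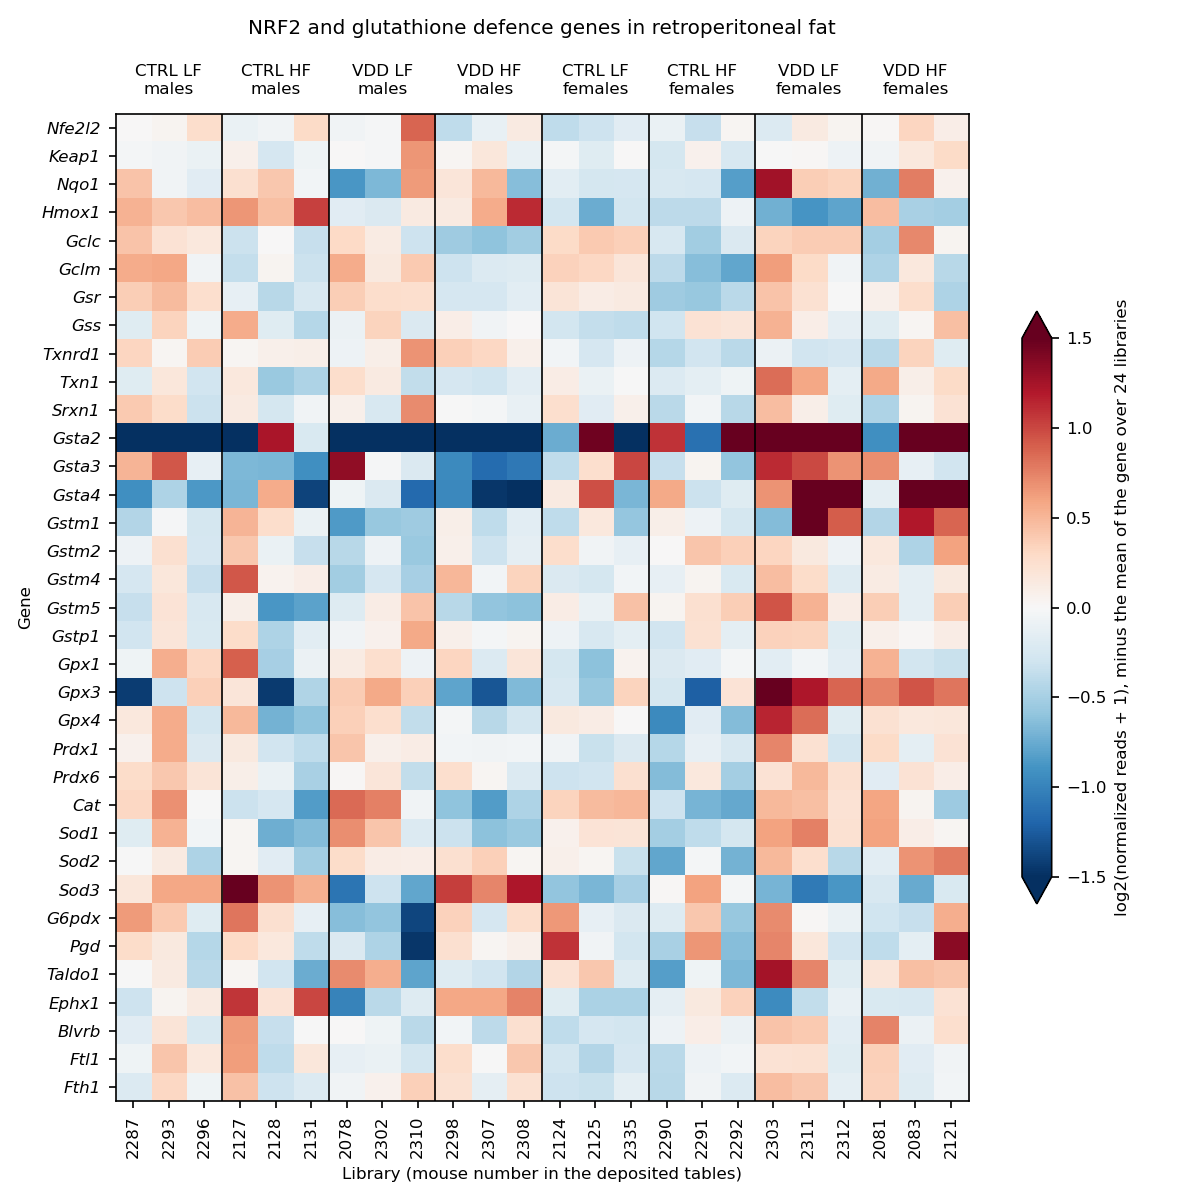
Level of 35 of the 39 genes in each of the 24 libraries, as log2(normalised reads + 1) minus the mean of the gene, with colours cut at 1.5 either side; genes are in rows and libraries in columns by group. Slc7a11, Gsta1, Gstm3 and Gpx2 are not drawn because of their low counts, and Gclm, Gsr, Cat and Gsta3 are mostly above their mean in LF libraries and below it in HF libraries.

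The effect of the HF diet was first taken as the mean of its effect in CTRL males, VDD males, CTRL females and VDD females, in a limma fit over 24 libraries. A gene was called where its Benjamini-Hochberg adjusted p over all 18399 genes tested was under 0.01 and its fold change above 1.5 or below 0.66. Of the 36 genes of the set that were tested, 5 were called. Gsta3, Cat and Gclm fell and Sod3 and Ephx1 rose, which is 13.9% of the tested set against 9.44% of all genes tested called in this contrast. At an adjusted p under 0.05 with no threshold on fold change there were 10 genes, 7 lower and 3 higher on HF, which is 27.8% of the tested set against 29.2% of all genes. Across the set 14 genes were higher and 22 lower on HF, with a median log2 fold change of -0.05 against 0.01 over all genes tested. Under upper-quartile scaling the calls over all genes moved from 1065 higher and 671 lower to 832 higher and 889 lower.

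**Figure D2:**
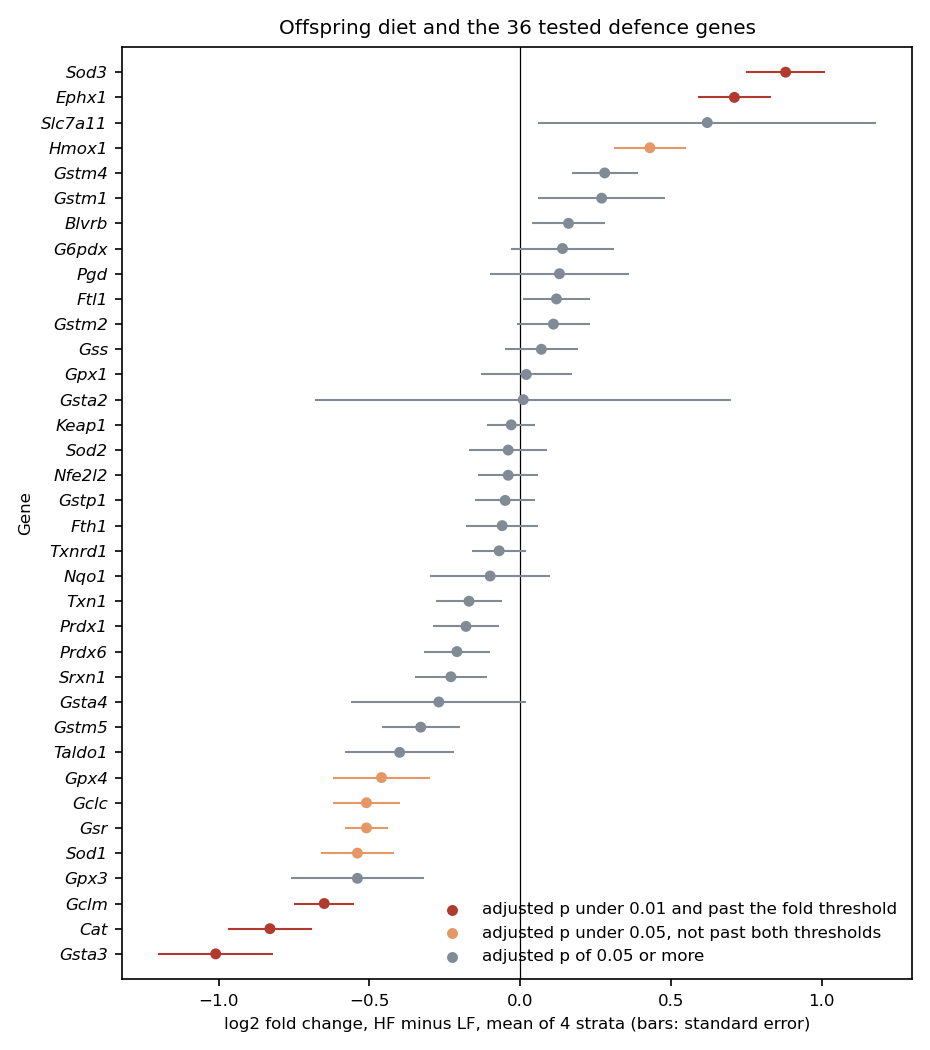
Log2 fold change, HF minus LF, of the 36 genes tested, averaged over the 4 strata of maternal diet and sex; bars are standard errors of the limma fit over 24 libraries. The 5 genes past both thresholds are in red, those at an adjusted p under 0.05 alone are in orange, and the values run from -1.01 (Gsta3) to 0.88 (Sod3).

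Glutathione is made by the glutamate-cysteine ligase, with Gclc (chr9:77754535-77794485) as its catalytic subunit and Gclm (chr3:122245557-122270732) as its modifier, and then by Gss. Gclm mRNA was counted at 1015, 1031 and 668 normalised reads in CTRL LF males against 541, 713 and 552 in CTRL HF males, and at 1015, 764 and 906 in VDD LF males against 558, 598 and 606 in VDD HF males. In females it was at 877, 859 and 784 (CTRL LF), 527, 443 and 403 (CTRL HF), 1067, 843 and 666 (VDD LF) and 499.9, 769.7 and 518 (VDD HF). LF and HF mice did not overlap in VDD males and CTRL females, and in each of the other strata a lone HF mouse lay above the lowest LF mouse. Gclm fell by 0.65 ± 0.10 on the log2 scale (SE, adjusted p = 0.000151, limma), which is 1.56-fold.

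Gclc was at 714, 619.8 and 594 normalised reads in CTRL LF males and 424, 533 and 419 in CTRL HF males, and at 656, 580.4 and 427 and 367, 350.5 and 371 in VDD males on LF and HF. In females the values were 648, 696 and 679 for CTRL LF, 449, 369 and 456 for CTRL HF, 672, 692 and 692 for VDD LF and 374, 874 and 549 for VDD HF. Every LF mouse lay above every HF mouse in 3 strata, whereas among VDD females mouse 2083 on HF was the highest of all. The difference was -0.51 ± 0.11 (adjusted p = 0.00156, limma), past the p threshold but at 1.42-fold short of the fold threshold. Gss, by contrast, differed by 0.07 ± 0.12 (adjusted p = 0.721), with libraries between 247 and 494 normalised reads.

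Glutathione reductase, encoded by Gsr (chr8:33652523-33698163), returns oxidised glutathione to its reduced form with NADPH. Gsr stood at 914, 986 and 846 normalised reads in CTRL LF males against 648, 532 and 599 in CTRL HF males, and at 917, 853 and 840.1 in VDD LF males against 594, 592 and 633 in VDD HF males. CTRL females had 812, 767 and 780.1 on LF and 489, 478 and 536 on HF, and VDD females 952, 829 and 705 on LF and 744, 847 and 512 on HF. Males of the 2 diets were apart in both maternal groups, as were CTRL females, and only VDD HF females 2081 and 2083 reached the LF range. With -0.51 ± 0.07 Gsr had the smallest adjusted p of the set (8.48e-05, limma), although its change of 1.43-fold missed the fold threshold. Slc7a11 was at 1.1, 1.2 and 3.6 normalised reads in CTRL LF, 0, 15.4 and 4.5 in CTRL HF, 1.3, 2.0 and 0 in VDD LF and 2.8, 5.1 and 4.3 in VDD HF males, and at 6.4, 15.9 and 2.4, 19.2, 1.0 and 20.7, 1.3, 19.9 and 16.8 and 1.3, 21.6 and 18.5 in the corresponding females. No diet difference was detectable for it at this depth (0.62 ± 0.56, adjusted p = 0.439).

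Glutathione S-transferases join glutathione to electrophiles, and the alpha-class enzyme Gsta3 (chr1:21240589-21265661) showed the largest diet difference of the set. Gsta3 was at 2121, 2832 and 1362 normalised reads in CTRL LF males against 933, 922 and 788 in CTRL HF males, and at 3723, 1463 and 1284 against 765, 668 and 706 in VDD LF and VDD HF males. In females it was at 1145, 1762 and 2988 (CTRL LF), 1170.3, 1533 and 984 (CTRL HF), 3229.8, 2946 and 2368 (VDD LF) and 2403, 1369 and 1213 (VDD HF). Male LF and HF mice were apart in both maternal groups, whereas the female ranges overlapped in both. Gsta3 fell by 1.01 ± 0.19 on the log2 scale (adjusted p = 0.000577, limma), 2.02-fold. The mu-class gene Gstm4 leaned the other way, at 0.28 ± 0.11 (adjusted p = 0.0574), and Gstm1, Gstm2, Gstm5, Gstp1, Gsta4 and Gsta2 lay between -0.33 and 0.27, none under an adjusted p of 0.05.

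Among the enzymes that remove peroxide and superoxide, catalase (Cat, chr2:103453849-103485160), which splits hydrogen peroxide in peroxisomes, fell on HF. It was at 25231, 32731 and 20213 normalised reads in CTRL LF males against 16291, 17067 and 11356 in CTRL HF males, and at 36769.5, 34236 and 19598 in VDD LF males against 13374, 11419 and 14816 in VDD HF males. CTRL females had 25580.2, 28339 and 28657 on LF against 16457, 12576 and 11904 on HF, and VDD females 28387, 27924 and 23706 against 30552, 20930.1 and 13991. The ranges were apart in 3 strata and overlapped in VDD females, where HF mouse 2081 was the highest. Cat fell by 0.83 ± 0.14 on the log2 scale (adjusted p = 0.000301, limma), 1.78-fold.

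Sod3 (chr5:52363791-52371418) encodes the superoxide dismutase of the extracellular space. Its level was 5123, 6809.5 and 6830.2 normalised reads in CTRL LF males against 14802, 7273 and 6635 in CTRL HF males, and 2142, 3675 and 2656 in VDD LF males against 9375, 7588 and 10591 in VDD HF males. In females it was 3036, 2837 and 3233 (CTRL LF), 4637, 6949 and 4474 (CTRL HF), 2814, 2194 and 2491.5 (VDD LF) and 3863, 2714 and 3911 (VDD HF). VDD males of the 2 diets were far apart, CTRL females were also apart, and the remaining strata overlapped. Sod3 rose by 0.88 ± 0.13 (adjusted p = 0.000124, limma), 1.84-fold. The cytosolic dismutase Sod1 went the other way, with a median of 8780 normalised reads on LF (6550 to 12800) and 5930 on HF (4550 to 11500), a difference of -0.54 ± 0.12 (adjusted p = 0.00267) that at 1.46-fold missed the fold threshold. The mitochondrial dismutase Sod2 differed by -0.04 ± 0.13 (adjusted p = 0.855).

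Glutathione peroxidases gave a mixed picture. Gpx4, the enzyme that reduces lipid peroxides within membranes, was at 9069.7, 11993 and 6689 normalised reads in CTRL LF, 11416, 4986 and 5341 in CTRL HF, 10434, 9706 and 6301 in VDD LF and 7964, 6092 and 6736 in VDD HF males. In females it was at 8988, 8757 and 8190.0, 4187, 7242 and 5173, 17934, 14492 and 7138 and 9550.0, 9042 and 9150.4, in the same order. CTRL LF and CTRL HF females did not overlap and the other strata did, and the mean difference was -0.46 ± 0.16 (adjusted p = 0.0429, limma). Gpx3 differed by -0.54 ± 0.22 (adjusted p = 0.0669) and Gpx1 by 0.02 ± 0.15 (adjusted p = 0.937). The peroxiredoxins Prdx1 and Prdx6 were 0.18 and 0.21 lower on the log2 scale, with adjusted p-values of 0.256 and 0.145.

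Of the detoxifying and haem-handling targets, Ephx1 (chr1:180976210-181020904), the microsomal epoxide hydrolase, rose on HF. Ephx1 was at 712, 908 and 967 normalised reads in CTRL LF males against 1863, 1022 and 1764 in CTRL HF males, and at 442, 668 and 771 against 1322, 1324 and 1482 in VDD LF and VDD HF males. CTRL females had 782, 637 and 636 on LF and 804, 974 and 1123 on HF, and VDD females 458, 685 and 817 and 756, 746 and 1025. The diets were apart in every stratum except VDD females, and the rise was 0.71 ± 0.12 (adjusted p = 0.000356, limma), 1.64-fold.

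Hmox1 (chr8:75093621-75100589) encodes haem oxygenase 1, which degrades haem and is induced in stressed cells and in macrophages. It was at 599.8, 554 and 575 normalised reads in CTRL LF, 662, 573 and 850.5 in CTRL HF, 372, 359 and 459.8 in VDD LF and 459, 617 and 912 in VDD HF males. Females had 346, 249.7 and 347, 319, 317 and 397, 253, 226 and 240.3 and 577, 297 and 292 in the same order. The diets were apart only in VDD females, and the mean difference was 0.43 ± 0.12 (adjusted p = 0.0138, limma), short of the call. Biliverdin reductase B (Blvrb) and the ferritins Ftl1 and Fth1 differed by 0.16, 0.12 and -0.06, with adjusted p-values of 0.358, 0.476 and 0.772.

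**Figure D3:**
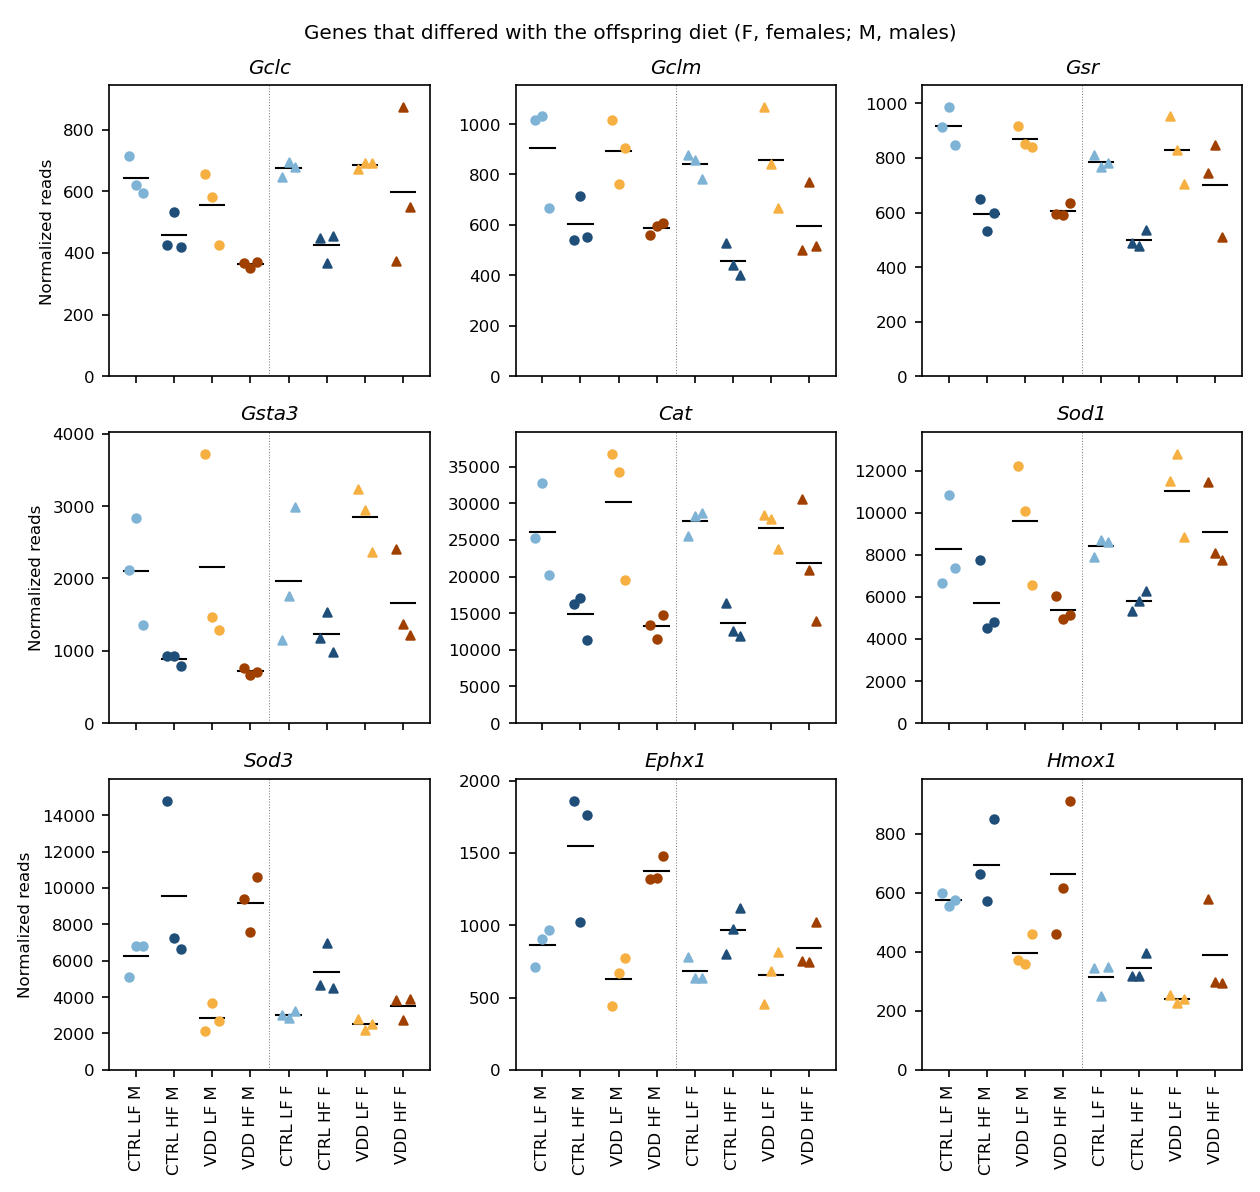
Normalised reads of 9 genes in each library, by maternal diet and offspring diet; circles are males, triangles females and the black line the mean of the group. Gclc, Gclm, Gsr, Gsta3, Cat and Sod1 are lower on HF and Sod3, Ephx1 and Hmox1 higher, with VDD HF females spread over the range of the LF mice for Gclc, Gsr and Cat.

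Nqo1, the quinone reductase often used as a readout of NRF2 activity, showed no diet difference beyond its spread. It was at 149.7, 107 and 98.2 normalised reads in CTRL LF, 131, 147 and 108 in CTRL HF, 60.2, 69.3 and 173 in VDD LF and 126, 155 and 71.0 in VDD HF males, and at 99.4, 92.5 and 92.9, 93.7, 92.9 and 62.1, 268, 143 and 139.7 and 66.8, 189 and 116 in females. The diet difference was -0.10 ± 0.20 (adjusted p = 0.759, limma). Thioredoxin reductase Txnrd1 renews reduced thioredoxin and was at 1146, 937 and 1200.0 in CTRL LF, 942, 970.0 and 975 in CTRL HF, 874, 981 and 1463 in VDD LF and 1178, 1139.7 and 966 in VDD HF males, and at 893, 774 and 871, 685, 756 and 693, 863, 754 and 774 and 697, 1160.0 and 813 in females. Sulfiredoxin Srxn1 repairs overoxidised peroxiredoxins and was at 648, 596 and 394, 541, 413 and 474, 520.2, 418 and 809.7 and 492, 484 and 457 in males and 588, 439.6 and 519, 374, 481 and 371, 680.3, 523 and 437 and 357, 507 and 573 in females, in the same order of groups. LF and HF overlapped for Nqo1 and Srxn1 in every stratum and for Txnrd1 in all but CTRL females. The differences were -0.07 ± 0.09 for Txnrd1 and -0.23 ± 0.12 for Srxn1 (adjusted p = 0.597 and 0.151).

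Nfe2l2 (chr2:75675513-75704641) was at 1415, 1444 and 1691 normalised reads in CTRL LF, 1317, 1352 and 1712 in CTRL HF, 1362, 1391 and 2581 in VDD LF and 1078, 1302 and 1541 in VDD HF males. Females had 1080.0, 1131 and 1247, 1314, 1104 and 1435, 1223, 1549 and 1449 and 1425, 1756 and 1506 in the same order. The highest value, 2581, belonged to VDD LF male 2310, the library with the most muscle RNA. Keap1 (chr9:21229730-21239361) was at 769.8, 761 and 738, 831, 661 and 755, 793, 779.5 and 1247 and 805, 885 and 731 in those male groups and at 769.7, 692 and 793, 658, 826 and 668, 784, 796 and 749.6 and 762, 880.5 and 958 in the female groups, again with male 2310 on top. The diet difference was -0.04 ± 0.10 for Nfe2l2 and -0.03 ± 0.08 for Keap1 (adjusted p = 0.823 and 0.799, limma).

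Marker sums of several cell types had different medians on the 2 diets, with overlapping ranges, and were not tested. The summed level of 10 macrophage markers, none at 0 in any group, had a median of 8320 normalised reads on LF (5320 to 25300) and 16500 on HF (6290 to 38800). That of the adipocyte markers had a median of 628000 on LF (381000 to 966000) and 473000 on HF (350000 to 729000), and that of 6 brown adipocyte markers 3640 on LF (652 to 10100) and 862 on HF (207 to 38700). Fabp4 was the largest part of the adipocyte sum in every library, and the markers in it did not all move together. In VDD males Lep was at 117, 629 and 454 normalised reads on LF and 15675, 15908 and 14378 on HF. Cidec was at 66944, 87882 and 49113 on LF and 55173, 39477 and 44474 on HF in the same males. In bulk tissue, fewer cells of a type and less RNA of a gene per cell cannot be told apart. Gsta3 and Sod3 were still called with each of these 3 sums as a covariate, Cat with the macrophage and the brown adipocyte sum, and Ephx1 with the brown adipocyte sum. Gclm then fell by 0.52, 0.59 and 0.58 on the log2 scale with the macrophage, adipocyte and brown adipocyte sum, and Cat fell by 0.56 with the adipocyte sum (adjusted p = 0.00226). Ephx1 was 0.56 and 0.58 higher with the macrophage and the adipocyte sum. These 6 values were under an adjusted p of 0.01 but short of the fold threshold. Without libraries rich in other tissue, Cat, Ephx1 and Sod3 were called, while Gsta3 had -0.93 (adjusted p = 0.022) and Gclm -0.58 (adjusted p = 0.0115). Both sets of alternatives were chosen after seeing the data.

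The 2-group comparisons of the study asked the same question within each stratum, with 3 mice against 3, and were fitted separately within each deposited table. At the same thresholds and by DESeq2, the study reported far more genes in every such comparison, on offspring or maternal diet. None called is therefore a result of these limma fits and does not show an absence of effect. In CTRL LF vs. CTRL HF males none of the 34 genes tested was called (0.0578% of all genes), none passed an adjusted p of 0.05 (1.17% of all genes) and 7 passed an unadjusted p of 0.05, 1 higher and 6 lower on HF (18.8% of all genes). The smallest p belonged to Gsta3 (-1.21 ± 0.25, adjusted p = 0.0586), Gsr (-0.64 ± 0.16, adjusted p = 0.0951) and Ephx1 (0.80 ± 0.25, adjusted p = 0.14). In VDD LF vs. VDD HF males, again with 34 tested and none called (0.0752% of all genes), 3 passed an adjusted p of 0.05 (5.35% of all genes) and 16 an unadjusted p of 0.05, 7 higher and 9 lower (25.9% of all genes). The 3 were Sod3 (1.72 ± 0.24, adjusted p = 0.0224), Gpx3 (-1.35 ± 0.23, adjusted p = 0.0318) and Ephx1 (1.17 ± 0.22, adjusted p = 0.0384). Leaving out 1 library at a time, Sod3 stayed under an adjusted p of 0.05 in 2 of 6 fits and Gpx3 and Ephx1 in 1 each, while the genes at that threshold over all genes went from 854 to between 0 and 2820. Fitted together over all 24 libraries, Sod3 and Ephx1 were called in this comparison (adjusted p = 0.00055 and 0.00425).

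In CTRL LF vs. CTRL HF females, none of 35 tested genes was called (0.00% of all genes), 4 passed an adjusted p of 0.05 (7.40% of all genes) and 11 an unadjusted p of 0.05, 3 higher and 8 lower (28.8% of all genes). The 4 were Gclm (-0.91 ± 0.13, adjusted p = 0.0206), Gsr (-0.67 ± 0.10, adjusted p = 0.0211), Gclc (-0.70 ± 0.12, adjusted p = 0.0274) and Cat (-1.05 ± 0.20, adjusted p = 0.0335). With 1 library left out Gclm stayed under 0.05 in 3 of 6 fits and Gsr and Gclc in 1 each, and the count over all genes ran from 0 to 1229. Over all genes in that comparison, upper-quartile scaling moved those at an adjusted p under 0.05 from 536 higher and 689 lower to 445 higher and 890 lower. In VDD LF vs. VDD HF females none of 36 was called (0.00% of all genes) and 1, Gsta3, passed an unadjusted p of 0.05 (5.05% of all genes), at -0.83 ± 0.28 with an adjusted p of 0.837. Sod3 (0.47 ± 0.20) and Hmox1 (0.62 ± 0.29) came next in that comparison, both at the same adjusted p. Without mouse 2081, whose 577 normalised reads of Hmox1 stood beside the highest macrophage sum of any female (24300), Hmox1 differed by 0.29. limma-voom on the recovered reads likewise called none of the set in these 4 comparisons. VDD HF females 2083 and 2121 held 21700 and 38700 normalised reads of 6 brown adipocyte markers, where no other library passed 10100. With each library of this comparison left out in turn, Gsta3 ran from -1.14 to -0.63 and Sod3 from 0.38 to 0.64, and no gene of the set was called.

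Set side by side, the 4 strata had the same direction for the genes above, which were picked by the mean of these values. Gclm differed by -0.58, -0.60, -0.91 and -0.53 in CTRL males, VDD males, CTRL females and VDD females, Gclc by -0.50, -0.59, -0.70 and -0.28, Gsr by -0.64, -0.52, -0.67 and -0.26, and Cat by -0.81, -1.15, -1.05 and -0.36. Sod1 differed by -0.56, -0.80, -0.56 and -0.29, and Gsta3 by -1.21, -1.42, -0.61 and -0.83. Sod3 differed by 0.52, 1.72, 0.77 and 0.47, Ephx1 by 0.80, 1.17, 0.47 and 0.39, and Hmox1 by 0.24, 0.69, 0.12 and 0.62. VDD females had the smallest difference for Gclm, Gclc, Gsr, Cat, Sod1, Sod3 and Ephx1. Whether strata differed was tested with interaction terms, given further on, and none was called.

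Maternal VDD was first taken as its mean effect over LF males, HF males, LF females and HF females. None of the 36 genes tested was called by limma (0.103% of all genes), also not by limma-voom, and 2 passed an adjusted p of 0.05 (4.59% of all genes), Gpx3 higher and Sod3 lower in the offspring of VDD dams. The tested genes leaned upwards, 28 higher and 8 lower, with a median log2 fold change of 0.15, where 49.1% of all genes tested were higher and their median was -0.01. At an unadjusted p under 0.05 there were 10 genes, 9 higher and 1 lower, which is 27.8% of the tested set against 22.9% of all genes. The brown adipocyte sum had a median of 3790 normalised reads in VDD (915 to 38700) and 749 in CTRL offspring (207 to 10100). In muscle-rich VDD LF male 2310, VDD HF male 2298 and VDD LF female 2303, Cox8b and Cox7a1 made up most of that sum. Cox8b was at 1725, 530 and 795.5 in them and Cox7a1 at 732.5, 314 and 215.5. Ucp1 was at 2.3, 0.9 and 3.8, against 683 in muscle-rich VDD HF male 2307. Whether the sum follows brown adipocytes in such libraries was not tested. With the brown adipocyte sum as a covariate, chosen after seeing the data, Gpx3 was at 1.05 (adjusted p = 0.225) and Sod3 at -0.43 (adjusted p = 0.317), and over all genes limma put none under an adjusted p of 0.05, with 1519 higher and 1258 lower at an unadjusted p under 0.05.

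Gpx3 (chr11:54902453-54910377), whose product is secreted, was at 6622, 14294 and 22719 normalised reads in CTRL LF males against 23169, 26373 and 22702 in VDD LF males, and at 20106, 6544 and 13023 in CTRL HF males against 10283, 7281 and 11258 in VDD HF males. In females it was at 14981, 11990.2 and 22385 (CTRL LF) against 58002, 41218 and 32580.4 (VDD LF), and at 14787, 7585 and 20444 (CTRL HF) against 29792, 34106 and 30915 (VDD HF). Every VDD female lay above every CTRL female, whereas male ranges overlapped on both diets. The mean difference was 0.81 ± 0.22 (adjusted p = 0.0395, limma), 1.75-fold, and with 1 library left out at a time it ran from 0.69 to 0.91 with adjusted p-values from 0.0181 to 0.0739.

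Sod3 was lower in VDD offspring by 0.51 ± 0.13 (adjusted p = 0.037), and leaving out 1 library at a time gave -0.56 to -0.42 with adjusted p-values from 0.0262 to 0.079. Its 3 VDD LF males, at 2142, 3675 and 2656 normalised reads, all lay below the 3 CTRL LF males, and VDD females lay below CTRL females on each diet. Among HF males the maternal groups overlapped, at 14802, 7273 and 6635 normalised reads in CTRL and 9375, 7588 and 10591 in VDD. Sod2, the manganese dismutase of mitochondria, was at 2083, 2302 and 1521 normalised reads in CTRL LF and 2534, 2258 and 2239.5 in VDD LF males, and at 2131, 1868 and 1457 in CTRL HF and 2473, 2691 and 2143 in VDD HF males. Females had 2206, 2141 and 1657 (CTRL LF), 2943, 2489 and 1567 (VDD LF), 1222, 2059 and 1276 (CTRL HF) and 1879, 3354 and 3586 (VDD HF). HF males of the 2 maternal groups did not overlap, other pairs did, and the mean difference was 0.46 ± 0.13 (adjusted p = 0.0515), or 0.22 (adjusted p = 0.578) with the brown adipocyte sum as a covariate. Nfe2l2 and Keap1 differed by 0.14 ± 0.10 and 0.18 ± 0.08 (adjusted p = 0.402 and 0.177).

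In CTRL LF vs. VDD LF males, none of 34 genes was called (0.00% of all genes), and 3 passed an unadjusted p of 0.05, all lower in VDD (6.79% of all genes). They were Sod3 (-1.16 ± 0.24, adjusted p = 0.575), G6pdx (-1.14 ± 0.30, adjusted p = 0.632) and Hmox1 (-0.53 ± 0.16, adjusted p = 0.657). G6pdx (chrX:74409483-74429194), glucose-6-phosphate dehydrogenase, makes NADPH for glutathione reductase. It was at 5041, 4269 and 2860.1 normalised reads in CTRL LF males against 2084, 2161 and 1251 in VDD LF males, and at 5642, 3821 and 2977 against 4116, 2718 and 3882 in CTRL HF and VDD HF males. The value 1251 was that of VDD LF male 2310, the library with the most muscle RNA. G6pdx was picked by its p in the LF comparison. In females it was at 5112, 2977 and 2784, 5321, 3274 and 3025, 2844, 4311 and 2194 and 2644, 2563 and 4730.1 for CTRL LF, VDD LF, CTRL HF and VDD HF, and maternal groups overlapped on both diets.

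CTRL HF vs. VDD HF males also gave none called of 34 (0.00% of all genes), and Gsta3 alone passed an unadjusted p of 0.05 (5.31% of all genes), with -0.32 ± 0.14. Gclc at -0.35 ± 0.15 and Sod2 at 0.42 ± 0.18 came next, and all 3 had an adjusted p of 0.94. Males were evenly split, with 15 genes higher and 19 lower in VDD on each diet.

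Females leaned further towards higher values in VDD. In CTRL LF vs. VDD LF females 30 of 36 genes were higher and 6 lower (median 0.34), where 51.6% of all genes tested were higher (median 0.01), with none called (0.00% of all genes) and 7 at an unadjusted p under 0.05, all higher (12.0% of all genes). The smallest p-values were those of Gpx3 (1.43 ± 0.34), Nqo1 (0.88 ± 0.27) and Gsta2 (5.12 ± 1.65), each with an adjusted p of 0.391. Nqo1 stood at 92.5 to 99.4 normalised reads in CTRL LF females and at 139.7 to 268 in VDD LF females. Without VDD LF female 2303, Gpx3 was 1.20, Nqo1 0.57 and Gsta2 3.20 higher.

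In CTRL HF vs. VDD HF females 32 of 36 were higher and 4 lower (median 0.36), where 50.1% of all genes tested were higher (median 0.00), with none called (0.00% of all genes), and 7 passed an unadjusted p of 0.05, 6 higher and 1 lower (16.7% of all genes). Taldo1 (0.89 ± 0.24, adjusted p = 0.174), Gpx4 (0.79 ± 0.24, adjusted p = 0.201) and Gpx3 (1.27 ± 0.38, adjusted p = 0.202) led. Transaldolase, the product of Taldo1 (chr7:141392199-141402968), works in the pentose phosphate pathway. Taldo1 was at 3111, 5271 and 3456 normalised reads in CTRL HF females against 6282, 7565 and 7369.5 in VDD HF females, and at 6433, 7344 and 4818 against 13172, 9153 and 4882 in CTRL LF and VDD LF females. In males the values were 5501, 6056 and 4186 (CTRL LF), 9062, 8079 and 3197 (VDD LF), 5635, 4522 and 3312 (CTRL HF) and 4849, 4545 and 4087 (VDD HF), and maternal groups overlapped. limma-voom called none of the set in these 4 maternal comparisons. By pathway analysis of its own gene lists, the study described an NRF2 oxidative stress response as upregulated with maternal VDD in females on each diet. The genes behind that pathway result were not compared with this set here.

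**Figure D4:**
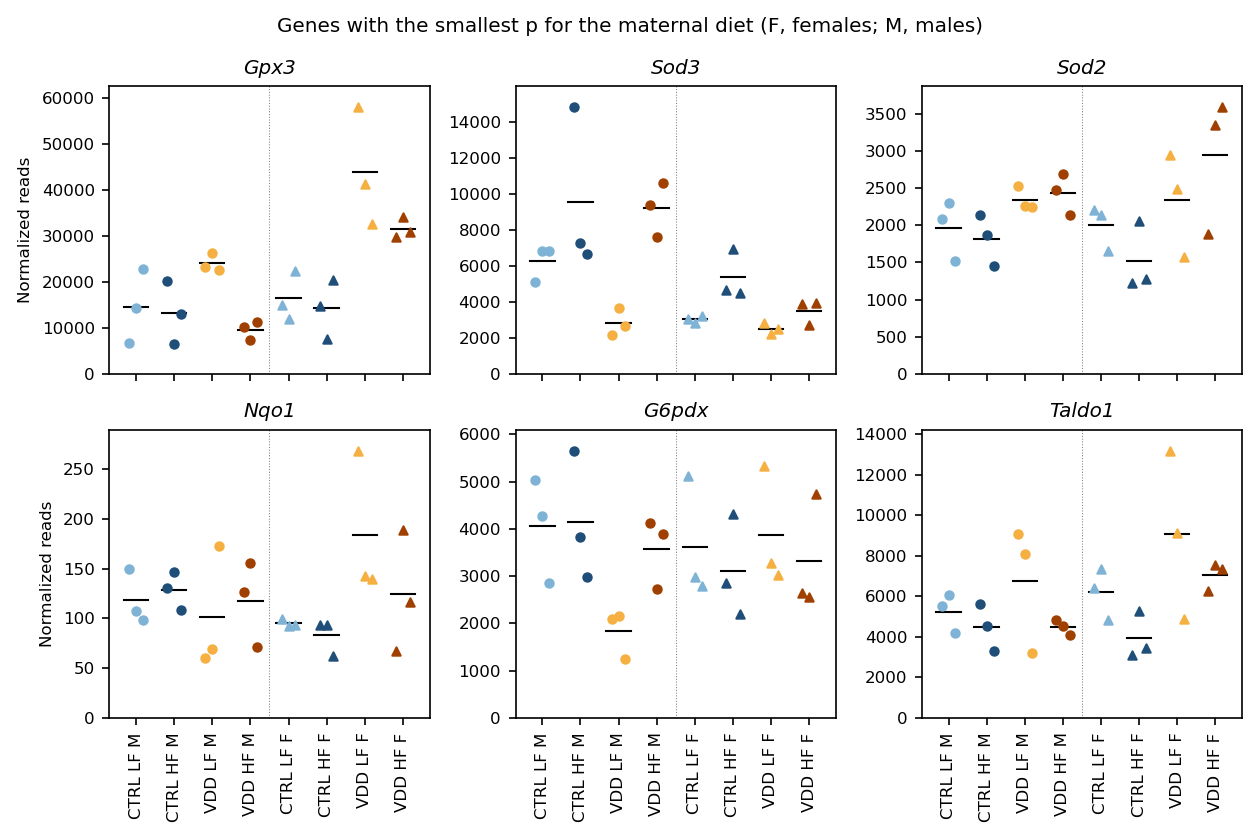
Normalised reads of Gpx3, Sod3, Sod2, Nqo1, G6pdx and Taldo1 in each library, by maternal diet and offspring diet; circles are males, triangles females and the black line the mean of the group. All 6 VDD females exceed all 6 CTRL females for Gpx3, and the 3 VDD LF males are the lowest males for Sod3 and G6pdx.

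Between the sexes, as a mean over the 4 diet groups, 4 of 36 tested genes were called, Gsta2 and Gsta4 higher and Hmox1 and Sod3 lower in females (7.27% of all genes). At an adjusted p under 0.05 there were 8, 4 in each direction (19.8% of all genes), which added Gpx3 (0.75 ± 0.22, adjusted p = 0.0188) and Gstm5 (0.54 ± 0.13, adjusted p = 0.00489) as higher and Txnrd1 (-0.39 ± 0.09, adjusted p = 0.00434) and Ephx1 (-0.41 ± 0.12, adjusted p = 0.0239) as lower in females. Hmox1 was at 226 to 577 normalised reads in females (median 307) and 359 to 912 in males (median 574), and was 0.85 ± 0.12 lower in females on the log2 scale (adjusted p = 9.66e-05, limma). Sod3 had a median of 3130 in females (2190 to 6950) and 6820 in males (2140 to 14800) and was 0.84 ± 0.13 lower in females (adjusted p = 0.000227). Macrophage markers were also lower in females, with a summed median of 8120 normalised reads against 17200 in males. With that sum as a covariate Sod3 was still called, and Hmox1 was at -0.51 (adjusted p = 0.0044), short of the fold threshold.

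Gsta4 (chr9:78182774-78209349) encodes a transferase for hydroxynonenal, a product of lipid peroxidation. It was at 281, 388 and 293, 332, 787 and 203, 509, 459 and 238 and 271, 193 and 186 normalised reads in CTRL LF, CTRL HF, VDD LF and VDD HF males, and at 584, 1041 and 331, 793, 425 and 471, 852, 2919 and 1787 and 482, 2469.9 and 1762 in females of those groups. Gsta4 was higher in females by 1.52 ± 0.29 (adjusted p = 0.00104, limma), 2.88-fold, although the ranges overlapped. The 4 highest libraries, between 1762 and 2919, were VDD LF females 2311 and 2312 and VDD HF females 2083 and 2121. Gstm1 was also highest in these 4 mice, with 3483, 16595 and 10258 normalised reads in VDD LF and 4048, 12572 and 10053 in VDD HF females, against 4202, 6143 and 3679 in CTRL LF and 5847, 5186 and 4577 in CTRL HF females. In males Gstm1 was at 4059, 5430.2 and 4564 (CTRL LF), 7835, 6608 and 5128 (CTRL HF), 3042, 3695 and 3784 (VDD LF) and 5833, 4210.2 and 4904 (VDD HF). The same 4 females had the highest sums of 8 mammary epithelium markers, 5900, 3340, 4090 and 3120 normalised reads, where no other library passed 1800, and the milk protein genes Csn2 and Wap were at 0 in every library. These sums came mostly from the keratins Krt5, Krt8 and Krt18, while the basal keratin Krt14 was at 70.4, 43.1, 12.7 and 64.9 normalised reads in the 4 females and highest in VDD LF male 2310 (147.4). Krt5 was also at 482 in CTRL HF male 2128. The uroplakin Upk1b, which is on the list of mesothelium markers, was at 2266, 1497, 1971 and 1266 in the same 4 females, and which tissue these transcripts came from was not tested. With kidney, adrenal, muscle and mammary sums as 4 covariates, the sex difference of Gsta4 was 1.14 (adjusted p = 0.0489) and none of the set was called. With the macrophage sum it was 0.96 (adjusted p = 0.0536) and with the brown adipocyte sum 1.11 (adjusted p = 0.00546).

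Gsta2 (chr9:78331018-78355788), another alpha-class transferase, was at 0 in 11 libraries and at 1579, 41.1 and 19.2 normalised reads in VDD LF females, the first of these values being that of mouse 2303 with the high kidney markers. Other females had 1.6, 10.9 and 0 (CTRL LF), 8.2, 1.0 and 32.3 (CTRL HF) and 1.3, 25.5 and 32.9 (VDD HF), and no male exceeded 9.1. The values 41.1, 19.2, 25.5 and 32.9 belonged to females 2311, 2312, 2083 and 2121, those with the highest mammary sums. The value 9.1 was that of CTRL HF male 2128, while CTRL HF female 2292, at 32.3, had Krt5 at 4.1. The fitted difference of 3.36 ± 0.69 (adjusted p = 0.00193, limma) rests on low counts and on the offset of 1 read, with 1.53 (adjusted p = 0.0255) at an offset of 10, and limma-voom gave 3.98 (adjusted p = 0.12). Leaving out mouse 2303 it was 2.88 (adjusted p = 0.00172), and without libraries rich in other tissue 2.18 (adjusted p = 0.0818). With the macrophage sum as a covariate it was 2.42 (adjusted p = 0.0651) and with the brown adipocyte sum 3.27 (adjusted p = 0.0102). The 4 other-tissue covariates gave 2.1 (adjusted p = 0.229).

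**Figure D5:**
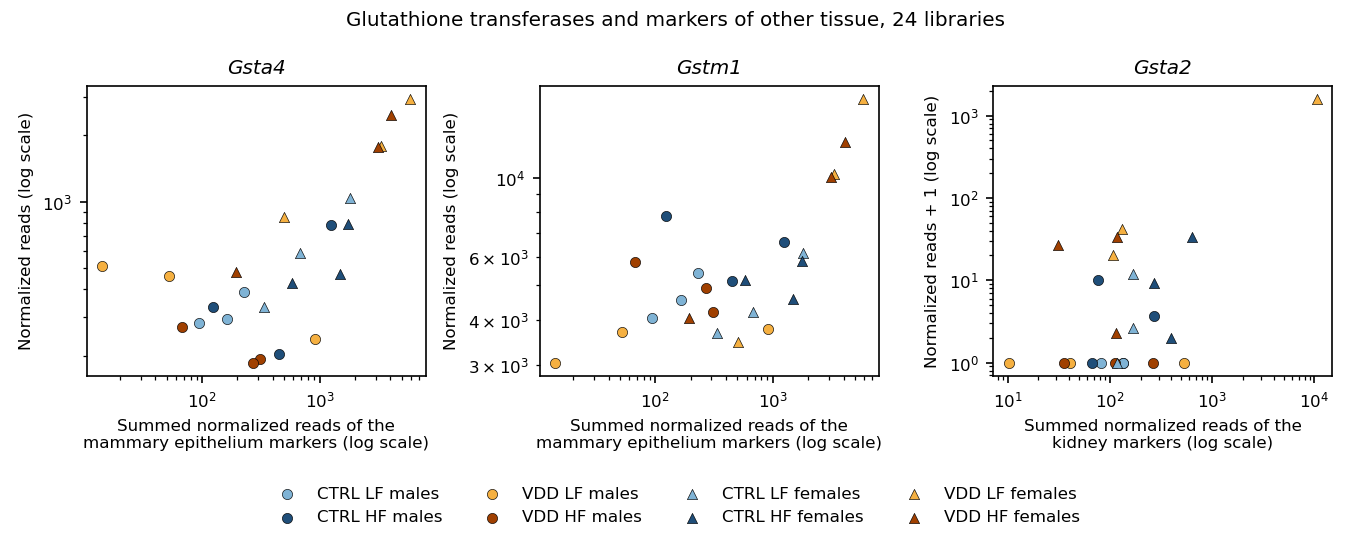
Normalised reads of Gsta4 and Gstm1 against the summed mammary epithelium markers, and of Gsta2 plus 1 against the summed kidney markers, in each library on log axes. The 4 females with the highest mammary sums have the highest Gsta4 and Gstm1, and VDD LF female 2303 stands apart in kidney markers and Gsta2.

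Whether an effect differed between groups was tested with 4 interaction terms over the 24 libraries, and no gene of the set was called in any, by limma or limma-voom. For maternal by offspring diet in males (0.00% of all genes called, 4.10% at an unadjusted p under 0.05) 1 gene of the set passed the unadjusted threshold, Sod3 at 1.20 ± 0.38 (adjusted p = 0.992), its HF effect being the larger in VDD males. For the same term in females (0.00% and 6.36% of all genes) 1 gene passed, Gsta2 at -4.54 ± 1.94 (adjusted p = 0.767). The next by p, without passing, were Gpx3 (-1.24 ± 0.61) and G6pdx (0.96 ± 0.48) in males and Sod2 (0.75 ± 0.37) and Gsr (0.39 ± 0.21) in females. For sex by offspring diet (0.0272% and 8.92% of all genes) 3 passed, Gstm4 (-0.63 ± 0.22), Ephx1 (-0.55 ± 0.25) and G6pdx (-0.73 ± 0.34), the HF effect being lower in females, at adjusted p-values from 0.4 to 0.549. Gstm4 was at 389, 519 and 365 normalised reads in CTRL LF, 886, 479 and 495 in CTRL HF, 322, 388 and 326 in VDD LF and 653, 449.8 and 584 in VDD HF males, and at 397, 384 and 451, 426, 476 and 394, 639, 559.5 and 406 and 502, 419 and 514 in females.

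The sex by maternal diet term (0.00% of all genes called, 6.63% at an unadjusted p under 0.05) was the most lopsided. VDD minus CTRL was higher in females than in males for 35 of 36 genes, with a median difference of 0.33 on the log2 scale, against 48.8% of all genes tested and a median of -0.01, and 9 genes passed an unadjusted p of 0.05, all in that direction, while none passed an adjusted p of 0.05. These genes come from the same 24 libraries and are not independent, and the count was made only in the main fit. The adipocyte sum had medians of 550000 in VDD and 463000 in CTRL females, and of 554000 and 679000 in VDD and CTRL males. The muscle sum had medians of 794 and 671 in those females and of 164000 and 2200 in those males. Whether these differences bear on the count was not tested. Gsta4 (1.64 ± 0.57, adjusted p = 0.715), Gstm1 (1.15 ± 0.42) and Gsta2 (3.73 ± 1.37) had the smallest p-values. With the 4 other-tissue covariates Gsta4 and Gstm1 were at 1.19 and 0.77 (adjusted p = 0.266 and 0.253).

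The genes around the set were counted on 4 further lists, beside 29.2% of all genes at an adjusted p under 0.05 and 9.44% called for HF minus LF. Of 16 partners and regulators of NRF2, 7 passed an adjusted p of 0.05 (43.8%), 1 higher and 6 lower, and 1 was called, Maff, a small MAF partner, which fell by 1.34 ± 0.25 (adjusted p = 0.00072). Of 24 further NRF2 targets tested, 10 passed an adjusted p of 0.05 (41.7%), 5 each way, with Nqo2 (0.94 ± 0.12), Ptgr1 (1.34 ± 0.26) and Abcc3 (0.91 ± 0.24) called higher and the transketolase Tkt (-1.47 ± 0.22) called lower. Among 36 other glutathione, thioredoxin and peroxide enzymes 14 passed (38.9%), 4 higher and 10 lower. Of those the glutaredoxins Glrx (-0.93 ± 0.13) and Glrx3 (-0.75 ± 0.11), the glutathione-degrading enzyme Chac1 (-1.45 ± 0.29) and Mgst2 (-1.07 ± 0.21) were called lower and Gpx7 (0.71 ± 0.13) higher. Of 12 oxidant-producing enzymes 8 passed (66.7%), all higher on HF, and the calls included the phagocyte oxidase subunit Ncf4 (1.10 ± 0.22) and the dual oxidase Duox1 (1.30 ± 0.30). Apart from the gene with the smallest p on each list, these names were chosen after their values were seen.

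For VDD minus CTRL none of these 4 lists had a gene called by limma, and 5, 2, 14 and 0 genes passed an unadjusted p of 0.05, which is 31.2%, 8.33%, 38.9% and 0.0% of those tested on each list against 22.9% of all genes. At an adjusted p under 0.05 there were 4 of the other glutathione, thioredoxin and peroxide enzymes (11.1%, against 4.59% of all genes), all higher in VDD, with Glrx3 at the smallest p (0.52 ± 0.11, adjusted p = 0.0148). Between the sexes Mafk (-0.62 ± 0.14) and Chac1 (-1.19 ± 0.29) were called lower and Tkt (1.25 ± 0.22), Ptgr1 (1.26 ± 0.26) and Idh1 (0.89 ± 0.20) higher in females, and no oxidant-producing enzyme was called.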

How the data were processed

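Total RNA was extracted with TRIzol and libraries were made with the Illumina TruSeq Stranded mRNA kit. Per the methods, the authors used Sickle for trimming and STAR 2.7.0d for alignment (unique positions only), added transcripts with Cufflinks 2.2.1, counted with featureCounts 1.6.1 and scaled with DESeq2. SAMtools 1.9 and the build mm10 are also named in the submitters' processing notes. The 8 deposited tables, 1 per 2-group comparison, hold log2(reads / size factor + 1) for 6 libraries each, scaled separately. Their columns of test results by the authors were not used. Of 56899 entries, 4 with repeated names were left out.

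Undoing the log2 of the deposited values gave whole reads for 100% of values (tolerance 0.02), with 13346779 to 18484346 reads per library, and the 24 libraries were scaled together by the median of ratios. Column names give group and mouse. Groups were compared with limma 3.58.1 (trend, R 4.3.3) within each table, on the deposited values, and over 24 libraries with 8 group means. Genes with at least 10 normalised reads in at least 3 libraries were tested. A call needed a Benjamini-Hochberg adjusted p under 0.01 plus a change past 1.5-fold (or 0.66-fold). Alternatives were upper-quartile scaling, an offset of 10, no filter, limma-voom, other thresholds, 1 fit for all, and libraries left out. The fit was tested on simulated data.

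The 39 genes, the lists and the rule for names were chosen with earlier results of these data known. Values of every library are given for Nfe2l2, Keap1, Nqo1, Hmox1, Gclc, Gclm, Txnrd1, Srxn1, Slc7a11, Gpx3 and Cat, for each gene called, and for the 3 smallest p-values of each contrast. Some genes of the further lists are not reported here. Promoters came from RefSeq. Python 3.11.15, pandas 2.3.3 and matplotlib 3.10.9 were used.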

Additional observations from a re-analysis of the deposited data

How the results depend on the processing

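None of 49 named differences reversed its direction in 1139 values, of which 24 lost and 2 gained a call. These differences were picked as calls or as 1 of the 3 smallest p-values of a contrast. Stable direction in part follows from that choice and does not extend to the rest of the set. Only differences called in the main fit could lose a call. Gsta2 (female minus male) lost it in 7 of 35 alternatives, and Gclm (HF minus LF) and Gsta4 (female minus male) in 4 of 35 each. Counts at an unadjusted p under 0.01 are given without the share of all genes, so they do not show whether the set stood out. Counts of called genes of the set moved as follows. At an unadjusted p under 0.01 with the fold threshold, there were 3 genes for offspring diet in CTRL males, 5 in VDD males and 5 in CTRL females, 2 genes for maternal diet in LF males and 1 each in females on LF and on HF, 1 for VDD minus CTRL, 1 for maternal by offspring diet in males, 1 for sex by offspring diet and 1 for sex by maternal diet. At an adjusted p under 0.05 with no fold threshold there were 3 for offspring diet in VDD males, 4 in CTRL females, 10 for HF minus LF, 2 for VDD minus CTRL and 8 for female minus male. A common fit over 24 libraries called 2 genes for offspring diet in VDD males. For HF minus LF the count of 5 became 3 without libraries rich in other tissue, 3 with the macrophage covariate and 2 with the adipocyte covariate. For female minus male the count of 4 became 2 without the 6 libraries named renal (Hmox1 and Sod3), 1 without libraries rich in other tissue (Hmox1), 0 with 4 other-tissue covariates and 1 with the macrophage covariate (Sod3). The cause was not tested. All covariates and the set of libraries rich in other tissue were chosen after seeing the data, and the latter leaves some groups with 1 library, which is assumed to vary like the rest.

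Leaving out 1 library at a time gave 5 to 6 called genes for HF minus LF, 4 to 6 for female minus male and 0 to 0 elsewhere. Without the 6 libraries named renal, which leaves 18, Cat was at -0.77 (adjusted p = 0.0123) for HF minus LF and Gsta4 at 1.39 (adjusted p = 0.0417) for female minus male. With the brown adipocyte covariate 4 genes were called for each of these contrasts, Gclm and Gsta2 no longer among them. No paired analysis was possible because the columns carry mouse numbers and not the replicate numbers of the labels. Genes under about 10 normalised reads, such as Slc7a11, were limited by depth.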
